A study of Mus musculus with 4 samples.

Results

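Mechanically strained mouse pre-osteoblasts were compared with and without medium conditioned by prostate cancer cells. MC3T3-E1, a wild-type (WT) line derived from mouse skull whose cells can mature into bone-forming osteoblasts, was grown in DMEM with fetal bovine serum. At confluence the conditioned-medium groups received medium taken from PC-3, a prostate cancer line of human origin, and the strained groups were stretched at 2500 microstrain and 0.5 Hz for 1 h per day. The comparison sets the library of cells given medium and strain (the medium-plus-strain library) against the library of cells given strain alone (the strain library). Untreated cells (the control library) and unstrained cells in conditioned medium (the medium library) are given beside it. Each group was 1 library of 1 cell line. The duration of treatment and the time between the last strain and harvest were not given in the sources used here. No group received medium conditioned by other cells, so effects of PC-3 products cannot be told apart from those of spent medium in general.

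All 41288 genes of the deposited table entered the comparison, and the 11940 with at least 30 read counts in the higher of both libraries were used. A fold is the ratio of the gene's shares of each library's total count. The bracketed range after a fold is its 95% counting interval, which covers the sampling of reads only and not the spread between cultures. Levels are in RPKM, a read count divided by gene model length and by library total. With 1 library on each side no difference has a replicate check and no p-value can be given, so genes were singled out by size alone, at 2-fold or more either way.

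Bone is a frequent site of prostate cancer metastasis, and tumour cells there act on osteoblasts through secreted cytokines, growth factors and proteases. Osteoblasts respond to the interleukin-6 family through receptors that share the subunit gp130 and signal to the transcription factor STAT3, and to interleukin 1 and tumour necrosis factor through NF-kappaB. Both routes are known to induce acute-phase proteins and matrix proteases. Tensile strain is itself a stimulus for osteoblasts, known to act on immediate early genes, nitric oxide and prostaglandin synthesis and on bone matrix genes.

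The libraries held 10722179 counts (strain), 10007546 (medium plus strain), 10997085 (control) and 10659166 (medium), and 3 counts in a gene model of 1 kb corresponded to 0.273 to 0.30 RPKM. The table names its columns by single letters. L was read as mechanical loading and T as conditioned medium, which the labels do not spell out. If T stood for tensile strain, the strain and medium libraries would exchange places. The 4 genes whose models hold sequence like ribosomal RNA took 4.33% of counts in the strain library and 5.2% in the medium-plus-strain library. Without them and the mitochondrial genes the counts of genes past 2-fold were 109 higher and 105 lower, beside 108 and 114. Of 9 osteoblast markers 7 had 30 counts, as had 3 of 6 osteocyte markers, with Mepe and Sost at 0. Of the markers of other cell types, Ptprc and Tyrobp (macrophages), Adipoq and Lep (adipocytes), Epcam and Krt18 (epithelium) and Myod1 and Myog (muscle) were at 0 in all libraries, and no endothelial marker reached 30 counts. Lyz2 was the one macrophage marker with 30 counts, at 24.5 and 24.2 RPKM with strain and with both treatments. The summed level of 5 adipocyte markers was 0.464 RPKM with strain and 0.91 with both treatments, and that of 6 chondrocyte markers 2.8 and 1.1, of which Col2a1 made up the larger part. Of 5 muscle markers Des had 99 and 92 counts and Acta1 36 and 13 in the same libraries. In RNA from bulk cultures, fewer cells of a type and less RNA per cell cannot be told apart.

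Conditioned medium in strained cells went with higher levels of a small set of genes and lower levels of a set of similar size. Of the 11940 genes, 108 (0.905%) were at least 2-fold higher in the medium-plus-strain library and 114 (0.955%) at least 2-fold lower, 222 (1.86%) in all. The counting interval excluded 1 for each of the 222. A 2-fold ratio with at least 30 counts brings this about by itself, so it adds no support to the calls. At 1.5-fold the counts were 351 (2.94%) and 515 (4.31%), 7.25% together. The ratio was above 1 for 41.3% of genes and below 1 for 58.7%, and the median log2 ratio was -0.04. The interval lay wholly above 1 for 11.4% and wholly below 1 for 19.9%. These shares are the background for the gene groups that follow. Of 1345 listed and marker genes found in the data, 1090 had 30 counts, and the counts given for a list refer to its members among these. Protein-coding genes made up 84 of the 108 and 98 of the 114, and long non-coding RNAs 17 and 11. At the edge of the rule, 4 genes were named after their values were seen. Casp12 (a caspase gene) was just inside at a ratio of 2.01 (1.79 to 2.26) and Col12a1 (a fibril-associated collagen) just outside, at a ratio that rounds to 2.0 (1.96 to 2.04). On the other side Cdca8, 2.0-fold lower (1.58 to 2.55), was just inside, and Cdc6, whose fold rounds to the same value, just outside. On log2(RPKM + 1), a scale that shrinks the differences of low genes, 19 of the 72 genes past 2-fold that the naming rule picked were under 2-fold, Calcrl, Lef1, Rnf144a and Il33 among them.

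**Figure D1:**
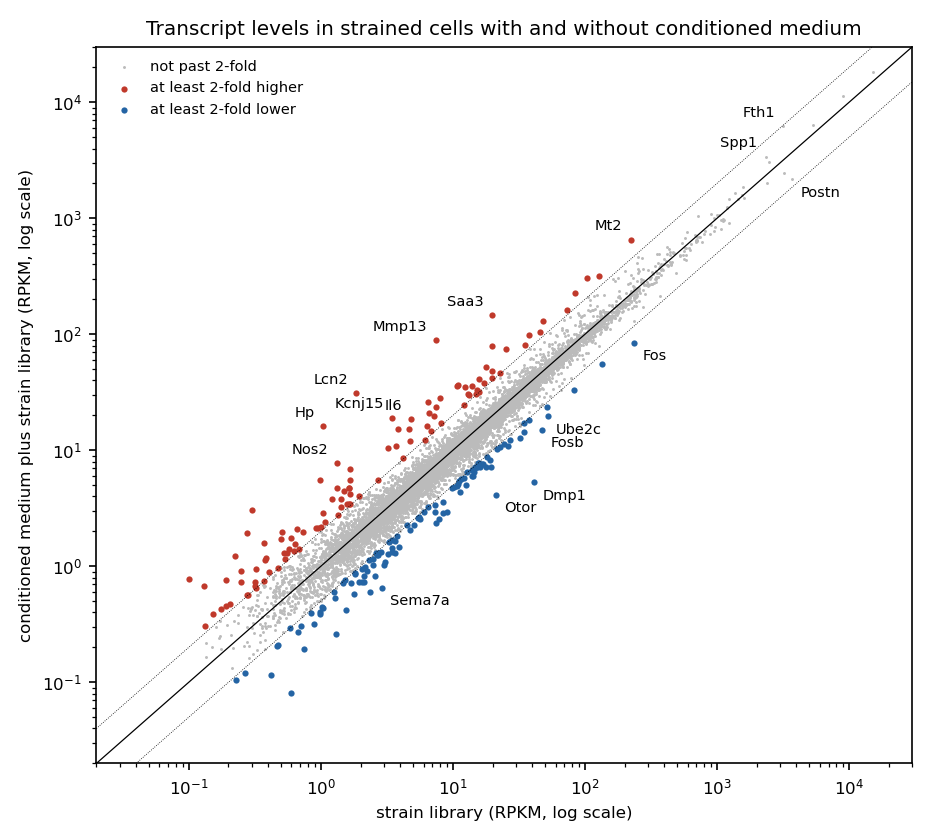
RPKM of each gene with 30 counts and a value above 0 in both libraries, in the strain library (horizontal) and the medium-plus-strain library (vertical), both on log axes. The solid line marks equal levels and the dotted lines a 2-fold ratio of RPKM. Red points are the 108 genes at least 2-fold higher with medium and blue points the 114 at least 2-fold lower, most of them below 100 RPKM.

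Genes of the acute-phase response, secreted proteins that the liver and other tissues make during inflammation, had the highest median of the lists. Of 15 listed genes 4 had 30 counts, all 4 were above a ratio of 1 and 3 were past 2-fold, with a median log2 ratio of 3.42. Of the pair compared, Lcn2 (17 and 264 counts) and Hp (15 and 217) reached 30 counts only in the medium-plus-strain library, where they were high. The median and the count above 1 therefore partly reflect the filter. Lcn2, lipocalin 2, which binds iron-loaded siderophores, had 1.86 RPKM in the strain library, 30.9 with medium and strain, 2.13 in the control and 28 with medium alone. The libraries with medium were both far above those without. Lcn2 was 16.6-fold higher (10.2 to 29) with medium in strained cells, on 17 and 264 counts. Hp, haptoglobin, which binds free hemoglobin, had 1.04 RPKM in the strain library, 16.1 with medium and strain, 0.947 in the control and 13 with medium alone, and was 15.5-fold higher (9.19 to 28.2). Saa3, serum amyloid A3, had 19.7 RPKM in the strain library, 145 with medium and strain, 18.5 in the control and 134 with medium alone, and was 7.39-fold higher (6.06 to 9.1). Its reads cannot be told apart with certainty from those of related amyloid genes. Cp, the copper-carrying ferroxidase ceruloplasmin, named after its values were seen, was the most abundant of the 4 and differed least, with 129 RPKM in the strain library and 153 in the medium-plus-strain library, a ratio of 1.18 (1.15 to 1.22).

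The promoters of 3 leading secreted genes are printed because they held one of the motifs searched. Those of Fcrlb, among the genes higher, and of Dmp1, Otor and Fosb, among the genes lower, were searched as well, held none of these motifs and are not printed. Hp was not matched. The printed sequences are the 250 bases upstream of the annotated start in RefSeq, build GRCm38.p6, for Mmp13 at chr9:7272264-7272513 (plus strand), Lcn2 at chr2:32387740-32387989 (minus strand) and Saa3 at chr7:46715677-46715926 (minus strand), each written 5′ to 3′ on the gene's strand. Capitals mark the AP-1-type motif TGANTCA in Mmp13 and the C/EBP-type motif TTGCNNAA, read on either strand, in Lcn2 and Saa3.
Mmp13: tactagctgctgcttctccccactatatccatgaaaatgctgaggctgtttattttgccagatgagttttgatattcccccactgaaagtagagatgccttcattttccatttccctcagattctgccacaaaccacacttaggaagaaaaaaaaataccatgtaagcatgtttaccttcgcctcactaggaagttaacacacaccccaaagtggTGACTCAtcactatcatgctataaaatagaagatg
Lcn2: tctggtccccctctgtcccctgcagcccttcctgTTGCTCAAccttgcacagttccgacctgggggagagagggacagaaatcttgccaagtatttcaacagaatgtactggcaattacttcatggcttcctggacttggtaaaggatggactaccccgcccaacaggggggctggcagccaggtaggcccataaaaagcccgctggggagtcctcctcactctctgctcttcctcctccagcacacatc
Saa3: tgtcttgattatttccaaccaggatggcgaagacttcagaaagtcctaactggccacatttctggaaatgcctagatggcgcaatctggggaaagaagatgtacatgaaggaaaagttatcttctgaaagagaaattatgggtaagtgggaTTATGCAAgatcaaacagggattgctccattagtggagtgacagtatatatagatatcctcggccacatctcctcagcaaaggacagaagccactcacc
The AP-1-type match TGACTCA lay 35 to 29 bases before the start of Mmp13. The C/EBP-type match TTGCTCAA lay 216 to 209 bases before that of Lcn2, and TTATGCAA, a match on the other strand, 99 to 92 bases before that of Saa3. Among the 9437 of 11940 genes matched to a promoter in the same RefSeq table, 4.11% held the AP-1-type and 7.32% the C/EBP-type letters in the same window, with both strands searched. The motifs searched in all of these were TTGCNNAA, TTCNNNGAA (STAT-type), an NF-kappaB-type motif and TGANTCA, and in the genes lower also TGACGTCA (CRE). The STAT-type letters were held by 5.72% and the NF-kappaB-type by 5.05% of the same 9437 promoters. Holding any one of the motifs searched is therefore more frequent than each single share. A match is a description of the letters only.

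Complement genes, which encode a blood-borne cascade that tags and lyses cells, lay on the same side. Of 19 listed genes 7 had 30 counts, 6 were above a ratio of 1 and 2 past 2-fold, with a median log2 ratio of 0.86. C4b, complement component C4B, had 7.97 RPKM in the strain library, 28.5 with medium and strain, 8.41 in the control and 28.5 with medium alone, and was 3.57-fold higher (3.22 to 3.96). The levels with medium were close to the same with and without strain. Clu, clusterin, an extracellular chaperone that blocks the end of the cascade, had 7.5 RPKM in the strain library, 23.7 with medium and strain, 7.27 in the control and 26.9 with medium alone, and was 3.16-fold higher (2.65 to 3.78). C3, the central component (named after its values were seen), had 109 RPKM in the strain library and 199 in the medium-plus-strain library, a ratio of 1.82 (1.76 to 1.88), below the 2-fold rule.

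Il6 and receptor genes of its family were higher with medium in strained cells. Of 20 genes with 30 counts 15 were above 1 and 5 past 2-fold, with a median log2 ratio of 0.25. Il6 itself, the cytokine, had 4.82 RPKM in the strain library, 18.5 with medium and strain, 3.98 in the control and 18.7 with medium alone, and was 3.83-fold higher (2.86 to 5.2). Osmr, the receptor chain for oncostatin M, had 25.3 RPKM in the strain library, 74.1 with medium and strain, 21.9 in the control and 85.4 with medium alone, and was 2.93-fold higher (2.77 to 3.11). Both receptor and ligand were at their lowest without medium, whether strained or not. Il6st, which encodes the shared subunit gp130, had 45.9 RPKM in the strain library and 104 in the medium-plus-strain library, and was 2.26-fold higher (2.16 to 2.37). Cebpd, a transcription factor gene induced by STAT3, had 11 RPKM in the strain library and 36.9 in the medium-plus-strain library, and was 3.35-fold higher (2.91 to 3.86), although Spidr lies on the opposite strand of its locus. The remaining member past 2-fold, Bcl3, an atypical inhibitor-of-NF-kappaB family member, was named after its values were seen and had a ratio of 2.56 (2.07 to 3.18). Socs3, the feedback inhibitor of gp130 signalling (also named after its values were seen), was just under the rule at 1.95 (1.83 to 2.09). Stat3 and the ligand gene Lif were chosen in the same way, Stat3 with a ratio of 1.25 (1.18 to 1.32) and Lif with a ratio of 0.874 (0.74 to 1.03) whose interval included 1.

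On the list of interleukin 1, 4 and 13 receptor genes, which also holds the ligand gene Il33, 3 of 12 were past 2-fold, all upward. Il4ra, the receptor chain shared by interleukins 4 and 13, had 6.5 RPKM in the strain library, 25.8 with medium and strain, 4.5 in the control and 26 with medium alone, and was 3.98-fold higher (3.54 to 4.48). Il13ra1, its partner chain, had 14 RPKM in the strain library and 36 in the medium-plus-strain library, and was 2.57-fold higher (2.33 to 2.84). Both chains of that receptor were higher with medium. Il33, an alarmin of the interleukin 1 family, was 3.04-fold higher (1.53 to 6.44), on 12 and 34 counts. Its receptor gene Il1rl1, named after its values were seen, had a ratio of 1.08 (0.995 to 1.17) in strained cells and of 2.62 (2.34 to 2.92) in unstrained cells. The median log2 ratio of the list was 0.16, against 0.56 without strain.

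Genes listed for the NF-kappaB pathway itself, subunits and inhibitors among them, differed little. Of 18 genes 13 were above 1 and none was 2-fold or 1.5-fold higher, with a median log2 ratio of 0.07. The one on this list past 2-fold was Traf1, an adaptor of tumour necrosis factor receptors, 2.27-fold lower (1.18 to 4.57) on 34 and 14 counts. Bcl3, the inhibitor family member given above as past 2-fold higher, was counted with the interleukin-6 family and not among these 18. Of 9 chemokine genes 6 were above 1 and 2 past 2-fold. Cxcl5, a neutrophil attractant, had 35.4 RPKM in the strain library, 80.5 with medium and strain, 48.8 in the control and 86.5 with medium alone, and was 2.27-fold higher (2.07 to 2.5). Ccl9, a chemokine that attracts osteoclast precursors in mice, was 2.46-fold higher (1.36 to 4.63), on 17 and 39 counts.

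Nitric oxide, prostaglandin and kinin genes, the mediators through which bone cells answer both load and inflammation, were mixed. Of 13 genes 9 were above 1 and 2 past 2-fold. Nos2, the inducible nitric oxide synthase, had 1.33 RPKM in the strain library, 7.73 with medium and strain, 1.31 in the control and 7.8 with medium alone. It was 5.83-fold higher (4.45 to 7.73) with medium in strained cells and close to the same level in both libraries without medium. Bdkrb1, the inducible kinin receptor B1, had 3.69 RPKM in the strain library and 10.8 in the medium-plus-strain library, and was 2.93-fold higher (2.13 to 4.09). Ptgs2, the inducible cyclooxygenase of prostaglandin synthesis (named after its values were seen), lay on the other side in strained cells, with 40.6 RPKM in the strain library, 30.2 with medium and strain, 39.5 in the control and 48.8 with medium alone and a ratio of 0.743 (0.693 to 0.797). Without strain its ratio was 1.23 (1.16 to 1.31).

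Proteases of the bone matrix included the gene whose counting interval lay farthest from 1 of the 222. Mmp13, collagenase 3, which cleaves fibrillar collagen during bone and cartilage remodelling, had 7.43 RPKM in the strain library, 89.2 with medium and strain, 5.47 in the control and 91.3 with medium alone. It was 12-fold higher (10.4 to 13.9) with medium in strained cells, on 213 and 2388 counts. Mmp3, stromelysin 1, which activates other metalloproteinases, was 2.79-fold higher (1.63 to 4.93), on 20 and 52 counts. Timp1, an inhibitor of these enzymes, had 73.2 RPKM in the strain library and 162 in the medium-plus-strain library, and was 2.22-fold higher (2.02 to 2.43), with Syn1 on the opposite strand of its locus. These were the 3 of 15 metalloproteinase and inhibitor genes past 2-fold. Timp3, an inhibitor bound to the matrix, and Mmp2, gelatinase A, were named after their values were seen. Timp3 was 1.75-fold lower (1.71 to 1.79) and Mmp2 had a ratio of 1.26 (1.23 to 1.29). Adamts5, an aggrecan-cleaving protease, was the one of 10 ADAMTS genes past 2-fold, 2.16-fold higher (1.96 to 2.39), with the non-coding LOC108168297 opposite it.

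Collagen chains lay mostly on the lower side and the enzymes that process them mostly on the higher side, in both cases by little. Of 22 collagen genes 17 were below 1, with a median log2 ratio of -0.14, and Col2a1 was the one past 2-fold. Col1a1, a chain of the main bone collagen, had 587 RPKM in the strain library and 484 in the medium-plus-strain library, and was 1.21-fold lower (1.19 to 1.23). Of 20 hydroxylase, lysyl oxidase and collagen-processing genes 16 were above 1, with a median of 0.14, and none was past 2-fold. Lox, the lysyl oxidase that cross-links collagen, had a ratio of 1.11 (1.07 to 1.14) and Serpinh1, the collagen chaperone, 1.0 (0.97 to 1.03). Of 21 proteoglycan and matricellular genes 11 were above and 10 below 1. Tnc, tenascin C, had 5.06 RPKM in the strain library, 2.28 with medium and strain, 3.02 in the control and 1.95 with medium alone, and was 2.22-fold lower (1.85 to 2.68). Postn, periostin, among the most abundant transcripts and named after its values were seen, had 3711 RPKM in the strain library, 2169.8 with medium and strain, 4735 in the control and 2095 with medium alone, and was 1.71-fold lower (1.69 to 1.73).

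**Figure D2:**
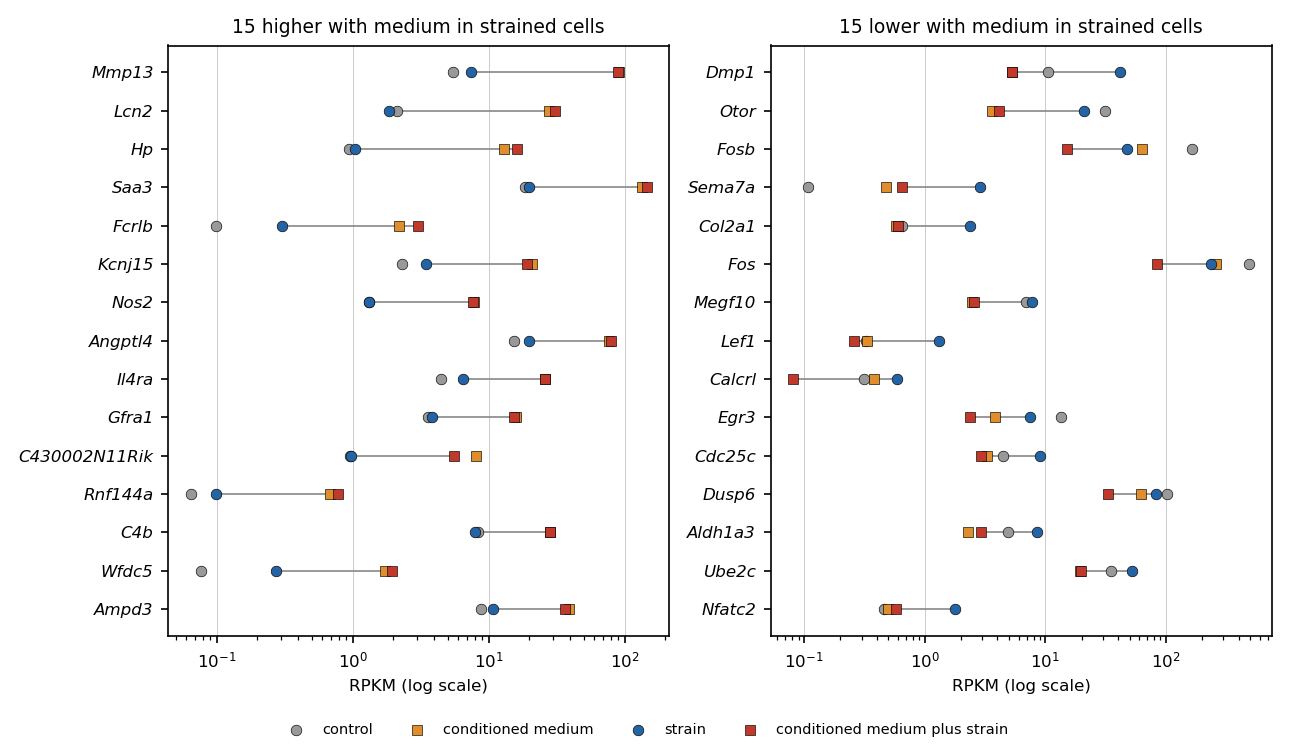
RPKM (log axis) in the 4 libraries for the 15 genes higher and the 15 genes lower in strained cells with medium whose counting intervals lie farthest from 1. Circles are the libraries without medium and squares those with medium, and the line joins the strain and medium-plus-strain libraries. For genes on the left both squares lie to the right of both circles, as for Mmp13 at 89.2 and 91.3 against 7.43 and 5.47 RPKM. On the right Dmp1, Sema7a, Col2a1, Lef1 and Nfatc2 are highest in the strain library, as are Calcrl, Cdc25c, Aldh1a3, Ube2c and, by little, Megf10. Otor, Fosb, Fos, Egr3 and Dusp6 are highest in the control.

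Bone phosphoprotein genes differed in opposite directions. Dmp1, dentin matrix protein 1, a mineral-binding protein made by osteocytes, had 41.2 RPKM in the strain library, 5.29 with medium and strain, 10.6 in the control and 5.3 with medium alone. The strain library was the highest, the control next, and both libraries with medium were lowest, at nearly the same level. Dmp1 was 7.8-fold lower (6.63 to 9.22) with medium in strained cells and 1.99-fold lower (1.66 to 2.4) in unstrained cells. The other osteocyte markers with 30 counts did not follow it in strained cells. Pdpn was 1.77-fold higher (1.68 to 1.86) and Phex had a ratio of 1.06 (0.765 to 1.46). The summed level of 6 osteocyte markers, mostly Pdpn, was 167 RPKM with strain and 227 with both treatments. Spp1, osteopontin, an adhesive phosphoprotein, had 2338 RPKM in the strain library, 3412 with medium and strain, 1223 in the control and 3455 with medium alone. Its ratio was 1.46 (1.44 to 1.48) with strain and 2.82 (2.78 to 2.87) without. Ank, a transporter of the mineralization inhibitor pyrophosphate, had 51.8 RPKM in the strain library and 23.9 in the medium-plus-strain library, and was 2.17-fold lower (2.0 to 2.36). Of 12 mineralization genes with 30 counts these 2, Dmp1 and Ank, were the ones past 2-fold.

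Osteoblast lineage regulators and late osteoblast products were low or little different. Of 16 lineage transcription factor genes 14 were below 1, with a median log2 ratio of -0.19 (without strain 0.00), and none was past 2-fold. Runx2, the master regulator of the lineage, had 14.3 RPKM in the strain library and 12.3 in the medium-plus-strain library, and was 1.16-fold lower (1.07 to 1.26), with Supt3 opposite it. Sp7, osterix, which acts after Runx2, had 3.18 RPKM in the strain library, 1.8 with medium and strain, 3.32 in the control and 2.17 with medium alone, and was 1.77-fold lower (1.28 to 2.47). Atf4, a stress and osteoblast transcription factor, had a ratio of 1.01 (0.96 to 1.05) and Cbfb, the partner of the RUNX proteins, 0.925 (0.863 to 0.993), with AI225912 overlapping it. Alpl, tissue-nonspecific alkaline phosphatase, was on 31 and 32 counts, a ratio of 1.11 (0.654 to 1.87). Osteocalcin (Bglap, 5 and 1 counts) and bone sialoprotein (Ibsp, 1 and 3 counts) were too low to compare. Of signals to osteoclasts, Tnfsf11, which encodes the osteoclast-forming ligand RANKL, was at 0 counts in all 4 libraries. Tnfrsf11b, its decoy receptor osteoprotegerin, had 46.6 RPKM in the strain library and 59.8 in the medium-plus-strain library, a ratio of 1.28 (1.19 to 1.38). Of 10 such genes Ccl9 alone was past 2-fold.

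The 2-fold rule itself puts the strain library above the medium-plus-strain library in each gene called lower, and below it in each gene called higher, so the library at the extreme is a description only. Of the 114, 90 were highest in the strain library, 22 in the control and 2 in the medium library. Of the 108, 50 were lowest in the strain library and 58 in the control. Sema7a, a membrane-anchored semaphorin, had 104 counts in the strain library, 22 with medium and strain, 4 in the control and 17 with medium alone. Col2a1, the cartilage collagen, had 149, 35, 42 and 36 counts in the same order. Nfatc2, a calcium-regulated transcription factor, had 160, 48, 42 and 44. In each of these the strain library was the highest by a wide margin. Lef1, a nuclear effector of Wnt signalling, had 59, 11, 15 and 15 counts. Calcrl, the receptor for calcitonin gene-related peptide and adrenomedullin, had 31, 4, 17 and 20. With medium in strained cells Sema7a was 4.41-fold lower (2.77 to 7.34), Col2a1 3.97-fold lower (2.73 to 5.92) and Nfatc2 3.11-fold lower (2.24 to 4.39). Lef1 was 5.01-fold lower (2.6 to 10.6) and Calcrl 7.23-fold lower (2.56 to 28.2). Such folds rest on the single strain library, and whether it is high by the treatment or by its culture cannot be told apart.

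Immediate early genes, transcription factor genes that stretch and growth factors switch on within minutes, lay below 1. Of 24 EGR, NR4A, KLF and similar genes 21 were below 1, 9 were 1.5-fold lower and 2 were 2-fold lower, with a median log2 ratio of -0.43 in strained and -0.28 in unstrained cells. Egr3 had 7.49 RPKM in the strain library, 2.36 with medium and strain, 13.4 in the control and 3.85 with medium alone, and was 3.17-fold lower (2.52 to 4.01). Nr4a1, an orphan nuclear receptor, had 15.2 RPKM in the strain library, 7.2 with medium and strain, 34.1 in the control and 13.9 with medium alone, and was 2.11-fold lower (1.87 to 2.4). For both, the control library was the highest and the medium-plus-strain library the lowest. The AP-1 family split by member. Fosb had 47.8 RPKM in the strain library, 15 with medium and strain, 164 in the control and 63.7 with medium alone, and was 3.18-fold lower (2.9 to 3.49). Fos had 235 RPKM in the strain library, 84.9 with medium and strain, 490.2 in the control and 259.6 with medium alone, and was 2.77-fold lower (2.63 to 2.93). Fosl1, another FOS-family gene named after its values were seen, had 45.5 RPKM in the strain library, 74.5 with medium and strain, 30.6 in the control and 91.7 with medium alone and lay on the other side at a ratio of 1.64 (1.5 to 1.79). Of 11 AP-1 genes 6 were above 1 and 5 below.

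Genes that follow or restrain ERK, the growth factor kinase, were split likewise. Of 22 genes 15 were below 1, with a median log2 ratio of -0.19 in strained and 0.18 in unstrained cells. Dusp6, the phosphatase that removes ERK activation, had 82.8 RPKM in the strain library, 33 with medium and strain, 102 in the control and 62.4 with medium alone, and was 2.5-fold lower (2.32 to 2.7), with Gm34921 on the opposite strand. Phlda1, a pleckstrin-homology-like protein on the list, had 127 RPKM in the strain library, 318 with medium and strain, 123 in the control and 353 with medium alone, and was 2.51-fold higher (2.39 to 2.62).

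Cell division genes were the list with the most members past 2-fold lower. All 48 listed mitosis and G2/M genes with 30 counts were below a ratio of 1, 43 were 1.5-fold lower and 20 at least 2-fold lower, and the counting interval lay wholly below 1 for 47. The median log2 ratio was -0.95, against -0.04 over all genes and -0.69 for the same list without strain. Cdc25c, the phosphatase that starts mitosis, had 8.98 RPKM in the strain library, 2.93 with medium and strain, 4.45 in the control and 3.31 with medium alone, and was 3.06-fold lower (2.35 to 4.02). Ube2c, a ubiquitin-conjugating enzyme of the anaphase-promoting complex, had 52.4 RPKM in the strain library, 19.6 with medium and strain, 35.2 in the control and 19.2 with medium alone, and was 2.67-fold lower (2.25 to 3.17). Ccnb2, cyclin B2, had 19.3 RPKM in the strain library, 7.13 with medium and strain, 16.1 in the control and 7.18 with medium alone, and was 2.71-fold lower (2.17 to 3.39). In each of these the strain library was the highest and the libraries with medium were the lowest. Cenpa, the centromeric histone H3 variant, had 34.5 RPKM in the strain library and 14.3 in the medium-plus-strain library, and was 2.41-fold lower (2.07 to 2.82). The member that differed least was Bora, an activator of Aurora A named after its values were seen, at 1.19-fold lower (0.99 to 1.42). DNA replication and G1/S genes differed less. All 49 were below 1, 10 were 1.5-fold lower and none was 2-fold lower, with a median of -0.45 (without strain -0.21). Uhrf1, which maintains DNA methylation at replication forks, had 30.7 RPKM in the strain library and 19.8 in the medium-plus-strain library, and was 1.55-fold lower (1.41 to 1.7), and Rrm1, a subunit of ribonucleotide reductase, 1.26-fold lower (1.19 to 1.34). Of 26 cell cycle inhibitor and p53 target genes 23 were below 1 and none was past 2-fold, with Cdkn1a, which encodes the inhibitor p21, at 0.855 (0.821 to 0.89) and Ccng1 at 0.844 (0.814 to 0.875).

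**Figure D3:**
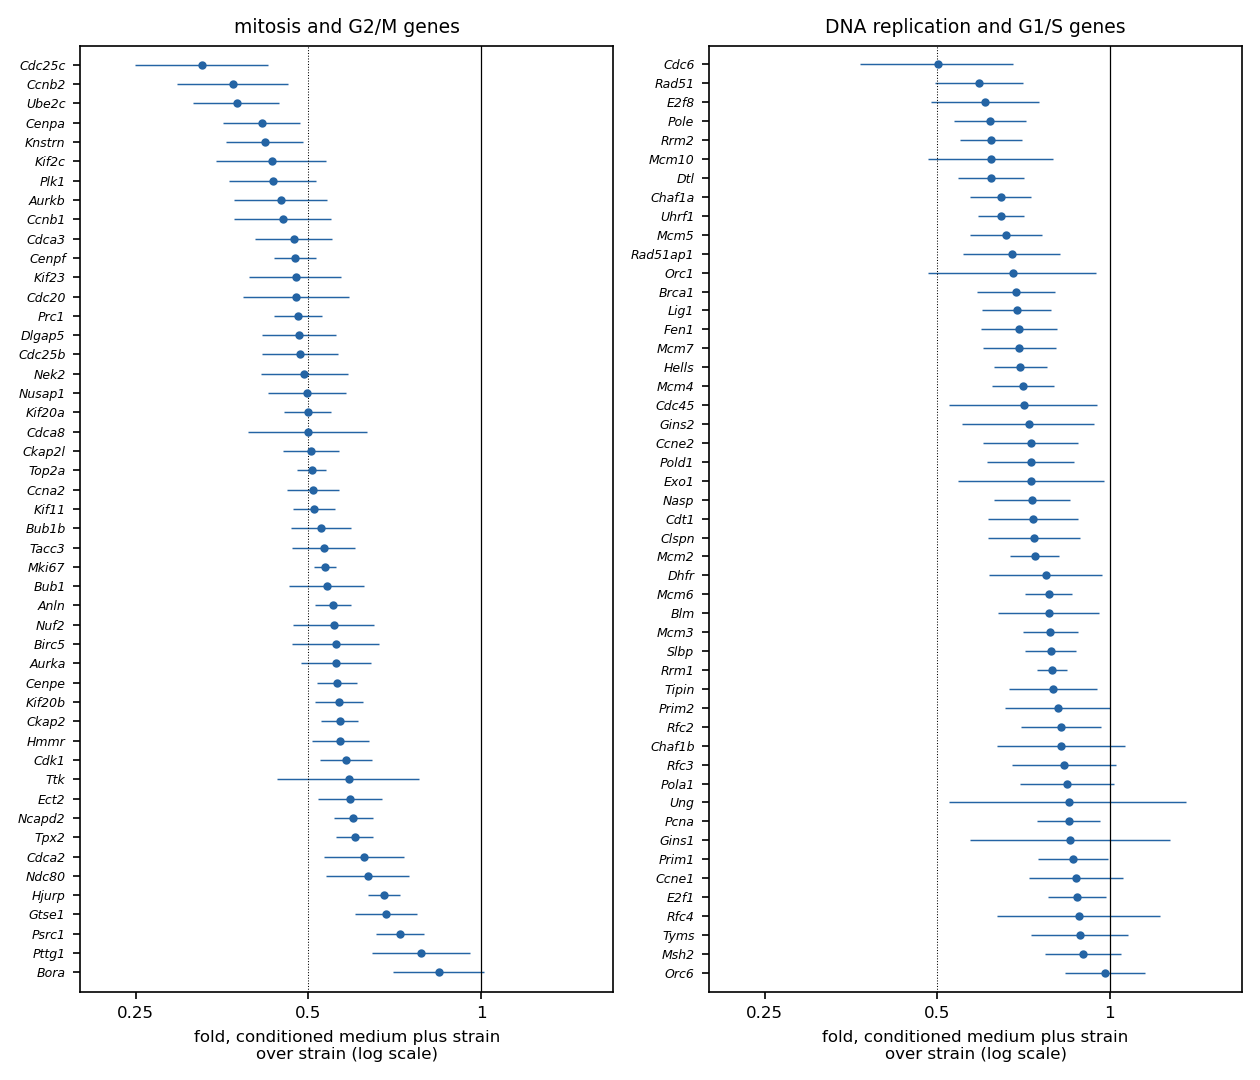
Ratio of count shares, medium-plus-strain over strain library (log axis), with 95% counting intervals, for 48 mitosis and G2/M genes (left) and 49 DNA replication and G1/S genes (right). The solid line marks 1 and the dotted line a 2-fold lower share. Each point lies left of 1, with 20 of the mitosis genes and none of the replication genes at or beyond the dotted line.

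Mitotic genes are known to be timed through a pair of promoter elements, the cell cycle homology region (CHR, TTTGAA) and the CCAAT box, so the promoters of 2 members past 2-fold are shown. They are again the 250 bases upstream of the RefSeq start in GRCm38.p6, for Ube2c at chr2:164769679-164769928 (plus strand) and Ccnb2 at chr9:70421555-70421804 (minus strand). Capitals mark TTTGAA and CCAAT on either strand.
Ube2c: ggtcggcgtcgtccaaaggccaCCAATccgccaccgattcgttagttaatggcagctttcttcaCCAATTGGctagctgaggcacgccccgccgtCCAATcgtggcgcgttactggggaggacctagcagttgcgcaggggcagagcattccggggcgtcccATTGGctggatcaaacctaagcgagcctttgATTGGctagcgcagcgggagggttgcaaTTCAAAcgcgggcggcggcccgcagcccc
Ccnb2: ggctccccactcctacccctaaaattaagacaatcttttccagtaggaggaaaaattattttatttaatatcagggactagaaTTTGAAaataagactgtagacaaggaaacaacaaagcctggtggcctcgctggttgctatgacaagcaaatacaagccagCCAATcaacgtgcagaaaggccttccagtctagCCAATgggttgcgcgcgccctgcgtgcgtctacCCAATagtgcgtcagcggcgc
The CHR letters lay 29 to 24 bases before the start of Ube2c, as TTCAAA on the other strand, and 167 to 162 bases before that of Ccnb2. CCAAT occurred 6 times before Ube2c, where a pair of matches on opposite strands overlaps, and 3 times before Ccnb2. The CHR letters lay nearer the start than each CCAAT in Ube2c and farther from it than each CCAAT in Ccnb2. Whether the marked letters act as such a pair was not tested. Of the 40 mitosis genes matched to a promoter, of 48, 12 (30%) held the CHR letters and 30 (75%) a CCAAT, against 10.6% and 37.4% of the 9437 promoters of all genes compared. Of the 37 DNA replication and G1/S genes matched, 5 (13.5%) held the CHR letters and 25 (67.6%) a CCAAT. Both lists were made of cell cycle genes, so these shares describe the lists and not the response to medium.

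Genes of the hypoxia response and of glycolysis were higher as groups, mostly by less than 2-fold. Of 23 hypoxia genes 21 were above 1, 11 were 1.5-fold higher and 4 of these were 2-fold higher, with a median log2 ratio of 0.53 in strained and 0.54 in unstrained cells. Pfkfb3, which makes a sugar phosphate that activates glycolysis, had 7.16 RPKM in the strain library, 19.7 with medium and strain, 6.72 in the control and 18.5 with medium alone, and was 2.74-fold higher (2.47 to 3.05). Bnip3, a mitophagy receptor, had 19.7 RPKM in the strain library, 48 with medium and strain, 20.2 in the control and 52.4 with medium alone, and was 2.44-fold higher (2.16 to 2.77). For both genes the libraries with medium were alike, as were those without. Car9, a membrane carbonic anhydrase, was 2.97-fold higher (2.0 to 4.5), on 35 and 97 counts, with Arhgef39 and Tpm2 opposite it. Ero1l, an oxidase for disulfide bond formation, was 2.11-fold higher (1.95 to 2.28). Of the 21 hypoxia genes matched to a promoter, of 23, 12 (57.1%) held the core letters ACGTG on either strand in the 250 bases upstream. The share was 22.2% of all genes compared. Among the 108 genes 2-fold higher, 8 of the 73 matched (11%) held these letters. The list was made of hypoxia genes, so its share describes the list and not the response to medium. Of 21 glycolysis genes 20 were above 1 and 5 were 1.5-fold higher, with a median of 0.41. Aldoa, aldolase A, had 253 RPKM in the strain library and 369 in the medium-plus-strain library, a ratio of 1.46 (1.42 to 1.5), and Pkm, pyruvate kinase, 1.34 (1.31 to 1.38).

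Angiogenic factor genes went both ways, as 3 of 15 were 2-fold higher and 2 were 2-fold lower. Angptl4, a secreted inhibitor of lipoprotein lipase, had 19.9 RPKM in the strain library, 79.6 with medium and strain, 15.4 in the control and 77.3 with medium alone, and was 3.99-fold higher (3.57 to 4.46). Apln, the peptide apelin, was 2.88-fold higher (2.1 to 4.0), on 55 and 148 counts, and Angpt4, a ligand of the receptor TIE2, 2.83-fold higher (2.4 to 3.34). Angpt1, the main TIE2 agonist, lay on the other side with 2.86 RPKM in the strain library, 1.32 with medium and strain, 3.61 in the control and 1.45 with medium alone, and was 2.17-fold lower (1.59 to 3.01). Pgf, placental growth factor, was 2.43-fold lower (1.42 to 4.29), on 52 and 20 counts.

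Metal-handling genes were mostly higher. Of 14 metallothionein and zinc transporter genes 12 were above 1 and 2 past 2-fold. Mt2, a metallothionein that binds zinc and copper, had 222 RPKM in the strain library, 655 with medium and strain, 167 in the control and 723 with medium alone, and was 2.95-fold higher (2.77 to 3.14). Slc39a14, an importer of zinc and iron, had 15 RPKM in the strain library and 30.5 in the medium-plus-strain library, and was 2.03-fold higher (1.9 to 2.17). Of 18 iron and heme genes 12 were above 1, with a median log2 ratio of 0.24. Steap4, a metalloreductase, was 2.14-fold higher (1.19 to 4.01), on 18 and 36 counts. Fth1, the ferritin heavy chain, named after its values were seen, had 3171 RPKM in the strain library and 6248 in the medium-plus-strain library, a ratio of 1.97 (1.95 to 1.99) just under the rule. Of 24 antioxidant genes 12 were above and 12 below 1. Sod2, mitochondrial superoxide dismutase, a known target of NF-kappaB, had 37.5 RPKM in the strain library, 99.1 with medium and strain, 36.2 in the control and 100.1 with medium alone, and was 2.64-fold higher (2.49 to 2.8), the only one of these past 2-fold.

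Sterol genes were lower as a group. Of 26 genes of cholesterol synthesis and uptake 24 were below 1 and 6 were 1.5-fold lower, with a median log2 ratio of -0.37 in strained and -0.45 in unstrained cells. Idi1, isopentenyl diphosphate isomerase, was the one past 2-fold, 2.8-fold lower (1.69 to 4.83), on 63 and 21 counts. Fatty acid synthesis and lipid droplet genes had a median of 0.05. Within that list the desaturase gene Scd2, with Mir5114 inside it, was 1.29-fold lower (1.26 to 1.32), and the elongase gene Elovl6 1.4-fold lower (1.34 to 1.47).

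Interferon-stimulated genes were mostly lower, with exceptions. Of 50 genes 36 were below 1, 12 were 1.5-fold lower and 3 were 1.5-fold higher, with a median log2 ratio of -0.30 in strained and -0.61 in unstrained cells. Rsad2, the antiviral enzyme viperin, was the one past 2-fold, 4.29-fold higher (2.4 to 8.13), on 15 and 60 counts. Named after their values were seen, Irf7, a transcription factor of the interferon response, was 1.76-fold lower (1.3 to 2.39), and Ifit1, which binds viral RNA, 1.68-fold lower (1.47 to 1.92). Without strain Irf7 was 3.18-fold lower (2.3 to 4.48) and Ifit1 3.05-fold lower (2.7 to 3.47). Genes of antigen presentation on MHC class I had a median of -0.05, with none past 2-fold. B2m, the shared light chain, had 955 RPKM in the strain library and 784 in the medium-plus-strain library, and was 1.22-fold lower (1.18 to 1.26), and Calr, a chaperone of the loading complex, had a ratio of 1.04 (1.01 to 1.07).

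Developmental signalling lists held few genes past 2-fold. Wisp2, a matricellular CCN protein, had 84.1 RPKM in the strain library, 229 with medium and strain, 56.4 in the control and 213 with medium alone, and was 2.72-fold higher (2.57 to 2.87). Rspo2, a secreted amplifier of Wnt signals, had 22.7 RPKM in the strain library and 46.6 in the medium-plus-strain library, and was 2.05-fold higher (1.9 to 2.21). With Lef1 these were the ones past 2-fold of 15 Wnt genes. Id1, a BMP target, had 12.6 RPKM in the strain library, 5.02 with medium and strain, 10.7 in the control and 11.2 with medium alone, and was 2.51-fold lower (1.79 to 3.57), low in the medium-plus-strain library alone. Of 17 BMP genes 12 were below 1, with a median log2 ratio of -0.15. Of 22 TGF-beta genes 18 were below 1, with a median of -0.12 and none past 2-fold. Hes1, a Notch target, had 11.4 RPKM in the strain library, 4.39 with medium and strain, 15.9 in the control and 7.38 with medium alone, and was 2.6-fold lower (1.99 to 3.43), the one past 2-fold of 11 Notch genes. Nuak2, a kinase on the YAP target list, was 2.13-fold lower (1.47 to 3.14), on 96 and 42 counts, the one past 2-fold of 21.

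Cytoskeletal genes were lower by little. Of 26 actin and contractile genes 22 were below 1, with a median log2 ratio of -0.16, and Acta1, skeletal muscle actin, was 2.58-fold lower (1.34 to 5.31) on 36 and 13 counts. The 5 skeletal muscle markers, Acta1 and Des among them, summed to 5.28 RPKM with strain and 4.18 with both treatments, with Myod1 and Myog at 0. Of 23 integrin and focal adhesion genes 17 were below 1 and none was past 2-fold. Itgb1, the common integrin beta chain, had a ratio of 0.973 (0.943 to 1.0), with LOC108167576 opposite it, and Tln1, talin, 0.984 (0.948 to 1.02). S100b, a calcium-binding protein, had 32.3 RPKM in the strain library, 12.8 with medium and strain, 49.2 in the control and 12.8 with medium alone, and was 2.53-fold lower (2.16 to 2.98), the one past 2-fold of 17 S100 and annexin genes. Kcnj15, an inward-rectifier potassium channel, had 3.46 RPKM in the strain library, 19.1 with medium and strain, 2.31 in the control and 20.7 with medium alone, and was 5.53-fold higher (4.8 to 6.38), the one past 2-fold of 18 channel, connexin and cadherin genes. Gfra1, a co-receptor for the neurotrophic factor GDNF, had 3.84 RPKM in the strain library, 15.3 with medium and strain, 3.58 in the control and 16 with medium alone, and was 3.99-fold higher (3.45 to 4.63). Cntf, ciliary neurotrophic factor, was 2.13-fold lower (1.11 to 4.33) on 32 and 14 counts, with Gm44505 overlapping it on the same strand.

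Other genes among the 15 farthest from 1 on each side belong to none of these lists. Ampd3, an AMP deaminase of purine metabolism, had 10.8 RPKM in the strain library, 36.2 with medium and strain, 8.85 in the control and 39.3 with medium alone, and was 3.34-fold higher (3.04 to 3.68), with Rnf141 opposite it. Fcrlb, an Fc receptor-like gene, was 10.0-fold higher (5.02 to 22.6), on 9 and 84 counts. Rnf144a, a ubiquitin ligase, was 7.86-fold higher (3.34 to 22.6), on 6 and 44 counts. Fcrlb, like Wfdc5 and C430002N11Rik below, was under 1 RPKM without medium, and Rnf144a was under 1 RPKM in every library. Wfdc5, a secreted protein of the protease inhibitor type, was 7.04-fold higher (3.16 to 18.5), on 7 and 46 counts, with LOC102639814 opposite it, and the long non-coding C430002N11Rik 5.71-fold higher (3.43 to 10.0), on 18 and 96. On the lower side Otor, otoraplin, a secreted protein known from cochlea and cartilage, had 21.1 RPKM in the strain library, 4.14 with medium and strain, 31.2 in the control and 3.58 with medium alone, and was 5.08-fold lower (3.58 to 7.39). Megf10, a receptor for the uptake of dying cells, had 7.81 RPKM in the strain library, 2.54 with medium and strain, 6.96 in the control and 2.46 with medium alone, and was 3.07-fold lower (2.61 to 3.63). Both were low in the pair of libraries with medium. Aldh1a3, an enzyme of retinoic acid synthesis, had 8.47 RPKM in the strain library, 2.91 with medium and strain, 4.92 in the control and 2.29 with medium alone, and was 2.91-fold lower (2.32 to 3.69).

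Lists of general housekeeping and stress genes held no gene past 2-fold. Cytosolic ribosomal proteins were below 1 in 67 of 78 genes, with a median log2 ratio of -0.11 (without strain 0.00), for example Rplp0 at 0.958 (0.933 to 0.983) and Rpsa at 0.901 (0.875 to 0.927). Respiratory chain subunits had a median of -0.08, with Atp5b at 0.925 (0.902 to 0.948) and Atp5a1, with Haus1 opposite it, at 0.963 (0.929 to 0.997). Ribosome biogenesis genes had 0.06, with Ncl (nucleolin) at 0.969 (0.931 to 1.01) and Npm1 (nucleophosmin) at 0.92 (0.872 to 0.97). Endoplasmic reticulum chaperones had -0.01, heat shock genes 0.02 and amino acid stress genes 0.05. Among them Hsp90b1, a chaperone of the secretory route, was at 0.922 (0.899 to 0.945) and the heat shock genes Hsp90ab1 and Hspa9 were at 0.921 (0.903 to 0.94) and 1.12 (1.08 to 1.16). Slc3a2, a subunit of amino acid exchangers, was at 1.34 (1.28 to 1.4). Circadian clock genes had -0.16, with Nr1d2 at 0.824 (0.766 to 0.886) and Bhlhe40, with 0610040F04Rik opposite it, at 1.06 (0.981 to 1.14). Long non-coding RNAs on the list were above 1 in 12 of 17, with Malat1 at 1.29 (1.28 to 1.31) and Neat1 at 1.25 (1.22 to 1.29). The insulin-like growth factor system had 0.01, with Igfbp4, a binding protein, at 1.35 (1.31 to 1.38), the highest of the list. Pappa2, a protease that cleaves such binding proteins, was at 1.23 (1.2 to 1.27) with strain and 0.963 (0.939 to 0.989) without.

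**Figure D4:**
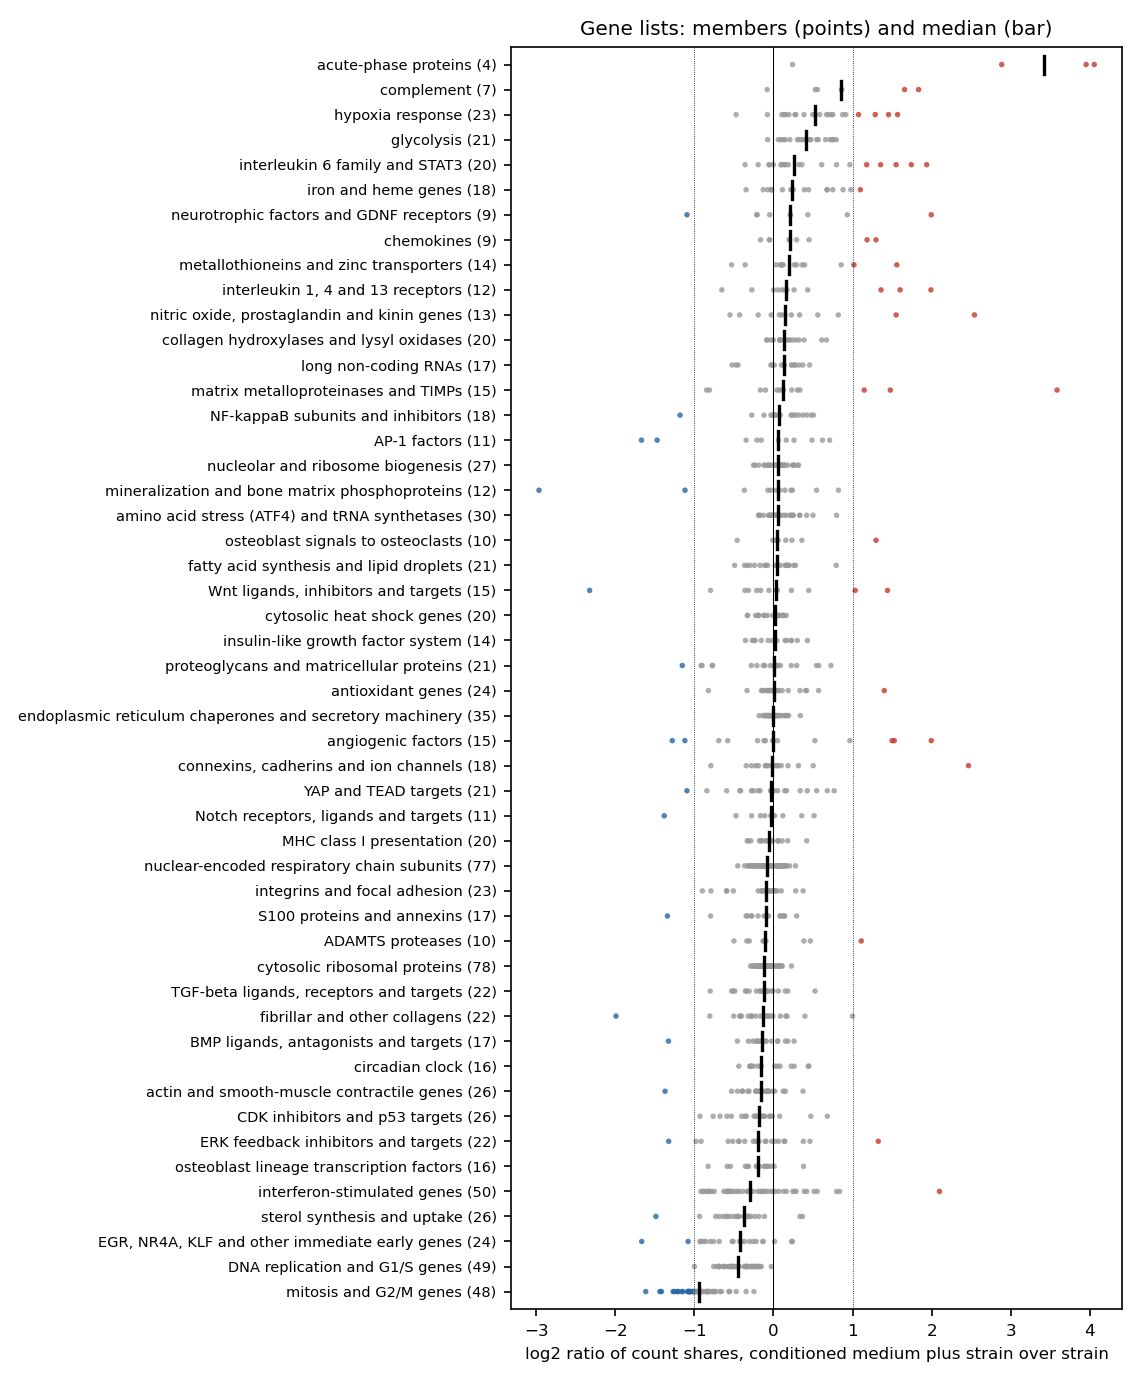
Log2 ratio of count shares, medium-plus-strain over strain library, for each listed gene with 30 counts (points) and the median of each list (black bars); the number of genes is in brackets and dotted lines mark 2-fold. Acute-phase genes have the highest median (3.42) and mitosis genes the lowest (-0.95), and most lists lie within 0.2 of 0. The acute-phase median rests on 4 genes, of which Lcn2 and Hp had 30 counts only in the medium-plus-strain library.

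The medium library and the control library are not part of the strained comparison, so the ratio of medium to control can be set beside it as a separate pair of libraries. There 158 of 12069 genes (1.31%) were 2-fold higher with medium and 98 (0.812%) 2-fold lower, 2.12% in all. At 1.5-fold the shares were 3.67% and 4.13%, 7.81% together. Ratios were above 1 for 42.6% and below for 57.4% of genes, and the counting interval lay above 1 for 13.6% and below it for 21.7%. Of the 108 genes higher in strained cells, 100 had 30 counts without strain, and 75 were also 2-fold higher there. Over all 108, whatever their counts without strain, the unstrained interval lay above 1 for 86 and below 1 for none. Of the 114 genes lower in strained cells, 94 had 30 counts without strain, and 31 were also 2-fold lower there. Over all 114 the unstrained interval lay below 1 for 67 and above 1 for 3.

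The ratio with strain was also divided by the ratio without strain, for the 12177 genes with 30 counts in the highest library and a count in all. This ratio of ratios was 2-fold or more above 1, with a counting interval above 1, for 73 genes and 2-fold or more below 1, with an interval below 1, for 93. With at least 100 counts the counts were 5 and 22. It was 0.256 (0.201 to 0.326) for Dmp1, 0.285 (0.16 to 0.507) for Col2a1, 0.297 (0.175 to 0.506) for Nfatc2, 0.38 (0.249 to 0.579) for Id1 and 0.413 (0.36 to 0.473) for Il1rl1. For Mmp13 it was 0.72 (0.583 to 0.891), for Lcn2 1.26 (0.648 to 2.47) and for Saa3 1.02 (0.771 to 1.36). The interval included 1 for Lcn2 and Saa3 and lay below 1 for Mmp13, whose ratio with medium was 12 (10.4 to 13.9) with strain and 16.7 (14.2 to 19.7) without. These ratios use the same strain library that placed the genes past 2-fold, so they describe the 4 libraries and add no separate evidence.

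**Figure D5:**
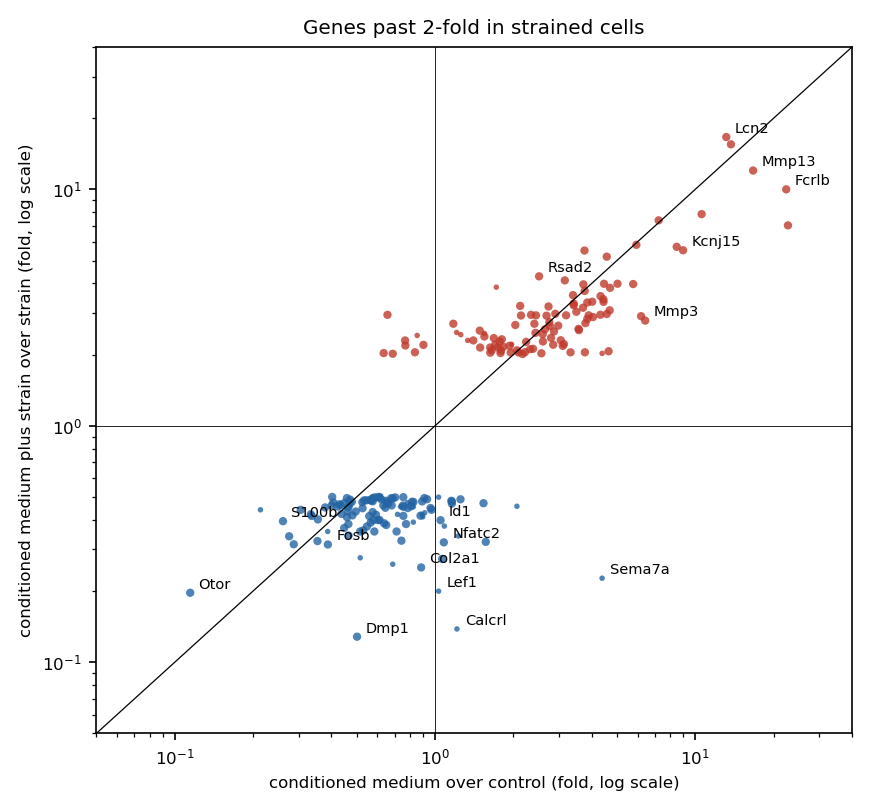
Fold with conditioned medium in strained cells (vertical) against the fold in unstrained cells (horizontal), both on log axes, for the 222 genes past 2-fold in strained cells. Small points have fewer than 30 counts in both unstrained libraries, and the diagonal marks equal folds. Most red points (higher with medium) lie in the upper right quadrant, with Lcn2 at 16.6 and 13.2, while Dmp1, Col2a1, Nfatc2, Lef1 and Id1 lie well below the diagonal.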

How the data were processed

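RNA was extracted with Trizol and sequenced from directional NEBNext Ultra libraries, per the labels' protocols, with 1 library for each of 4 groups. For each gene the authors deposited a count of reads and an RPKM value in every library, per the file headers. HISAT2 (version not stated) was the aligner, and the build mm9 is named, per the submitters' processing notes. The positions in the deposited table are nearer a later build: Entrez numbers matched 40033 genes to RefSeq GRCm38.p6, and 28748 of them (71.8%) shared chromosome and start with it, so promoters were read there. The counting tool, its strand setting and its handling of shared reads were not given in the sources used here. Genes with an overlapping partner, or with related genes of like sequence, as Saa3 may have, therefore have uncertain counts. RPKM recomputed from the deposited counts, gene lengths and library totals differed by a relative 5.05e-06 at most.

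Ratios of count shares and exact Clopper-Pearson intervals (95%, counting error only; reads copied in PCR are not independent) were computed with SciPy 1.17.1, pandas 2.3.3 and numpy 2.4.6 in Python 3.11.15, and figures drawn with matplotlib 3.10.9. A library at 0 entered at 3 counts. The steps were tested on simulated data. Alternatives used edgeR 4.0.16 TMM factors and DESeq2 1.42.0 size factors (R 4.3.3) as scalings only, other minimum counts and folds, log2(RPKM + 1), and protein-coding genes alone. No test was run, since each group is 1 library.

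Genes named are the 15 with the interval bound farthest from 1 each way, in each of 50 gene lists the 4 past 2-fold with the farthest bounds each way or, where none was, the 2 with most counts, and 10 osteoblast genes; others are cell type markers, overlapping genes or marked as chosen after their values were seen. The pair for the TGF-beta list is not reported here. Of 1355 listed symbols 10 were not matched in the table. The comparison, members and lists were chosen with earlier results of these data known. Overlaps were read from the gene positions deposited with the counts, among genes with at least 30 counts in any library.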

Additional observations from a re-analysis of the deposited data

Results flagged for a closer look

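Among genes past 2-fold in strained cells, 3 had counting intervals on opposite sides of 1 with and without strain: the medium went with less in strained and more in unstrained cells. The difference between the pairs of libraries was not tested beyond counting error. Sema7a, the semaphorin gene, had a ratio of 0.227 (0.136 to 0.362) with strain and 4.38 (1.43 to 17.9) without, the latter on 4 and 17 counts. LOC105243374, a long non-coding RNA, had 0.457 (0.277 to 0.734) and 2.06 (1.02 to 4.37), on 61 and 26 counts with strain and 13 and 26 without. Rwdd2b had 0.47 (0.254 to 0.837) and 1.54 (1.03 to 2.32), on 41 and 18 counts against 43 and 64.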

How the results depend on the processing

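The counts of 108 higher and 114 lower genes moved by less than 1.5 times with edgeR TMM factors (111 and 103), DESeq2 size factors (113 and 98), totals without the 100 most abundant genes (110 and 103), protein-coding genes alone (84 and 98) and, chosen after seeing the data, without ribosomal RNA-like and mitochondrial genes (109 and 105). They moved more with the minimum count: 2913 and 2475 genes with no minimum, 321 and 344 at 10 counts, 56 and 67 at 100 counts. With the interval bound nearest to 1 past 2-fold they were 51 and 23, so that 68.9% lay higher in place of 48.6%. They were 351 and 515 at 1.5-fold, and 34 and 15 at 3-fold (69.4% higher). On log2(RPKM + 1) with at least 1 RPKM, where no count minimum applies, 175 were higher and 171 lower. The genes past the 2-fold limits of the ratio of ratios, 73 and 93, were 5 and 22 at 100 counts, a setting chosen after seeing the data. Of the values of named genes under other scalings and on log2(RPKM + 1), 424 moved by less than their counting interval and 24 by more, 16 of these on log2(RPKM + 1), and no gene past 2-fold reversed. On log2(RPKM + 1), 19 of the 72 genes past 2-fold that the naming rule picked no longer differed 2-fold. With their log2 differences on that scale they were Rnf144a (0.70), Lef1 (-0.87), Calcrl (-0.56), Nfatc2 (-0.82), Il33 (0.65), Traf1 (-0.28), Ccl9 (0.59), Nr4a1 (-0.98), Mmp3 (0.93), Tnc (-0.89), Angpt1 (-0.74), Pgf (-0.75), Slc39a14 (0.97), Steap4 (0.48), Nuak2 (-0.71), Acta1 (-0.78), Idi1 (-0.82), Rsad2 (0.92) and Cntf (-0.69). All 255 values of the list medians moved by less than the median distance from centre to bound of their members' log2 counting intervals. Some changed sign, such as the median of the neurotrophic factor list, 0.21 in the main setting and -0.05 for members with at least 100 counts. No paired analysis was possible because each group is 1 library. Depth limits genes under 30 counts in the higher library, for which no ratio was read in the strained comparison. Ratios and intervals without strain were also read for genes with fewer counts there, Sema7a among them.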
